A study of Mus musculus with 4 samples.

Results

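The genes of oxidative phosphorylation, encoded in the nucleus and in mitochondrial DNA, were followed through 4 single-cell RNA libraries of mouse bone marrow. Members were chosen by symbol alone: the Nduf, Sdh, Uqcr, Cox4 to Cox8 and Atp5 series without Cox6a2, and the symbols that begin with mt-Nd, mt-Co, mt-Cytb or mt-Atp. The rule took 122 of the 56941 features listed. Subunits with any other symbol were left out, so counts and sums per complex are those of the members and not of whole complexes. Of these, 109 were nuclear and 13 were encoded in mitochondrial DNA. The nuclear members comprised 83 subunits (36 of complex I, 4 of complex II, 8 of complex III, 17 of complex IV and 18 of complex V), 4 assembly factors of complex II (Sdhaf1 to Sdhaf4), the supercomplex factor Cox7a2l, the paralog Ndufa4l2, 6 gene copies and 14 pseudogenes.

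Oxidative phosphorylation takes electrons from NADH through complex I and from succinate through complex II, passes them by ubiquinone to complex III and by cytochrome c to complex IV, and uses the proton gradient so made to drive ATP synthase, complex V. Complex II is wholly nuclear, whereas the other complexes combine nuclear subunits with subunits made inside the mitochondrion from its own DNA. In blood formation, quiescent stem cells and mature neutrophils are known to rely largely on glycolysis, and cycling progenitors and acute myeloid leukaemia cells to make more use of respiration.

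The study compared Rbm5 wild-type (WT) and Rbm5 knockout (KO) cells, Rbm5 being an RNA-binding splicing factor. There was 1 library of WT and 1 of KO marrow cells labelled ckit+, the receptor by which normal progenitors are enriched. The other two libraries were WT and KO primary leukaemias driven by the MLL-AF9 fusion, taken at a common endpoint after primary transplantation. Age, the deleted part of Rbm5, the promoter of the fusion, and whether cells were pooled or the host's own cells removed are not given in the sources used here. With 1 library per group there is no replicate and no test of any difference. All intervals below are 95% intervals for counting error only, and no difference can be set against the spread between animals.

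After filtering, 11406 to 13284 cells and 86739221 to 96153076 UMIs (counted RNA molecules) remained per library, with median UMIs per cell of 5168 and 5297 in the c-Kit+ libraries (WT, then KO) and 5810 and 7310.5 in the leukaemias. Levels are a gene's UMIs over all cells of a library that passed the filters, per 1000000 UMIs of that library (CPM). Any pair of libraries shared 39 to 54 cell barcodes. Rbm5 itself was at 75.4, 89.9, 160 and 116 CPM in that order. As the deleted part is not named, this does not check the KO labels. In the c-Kit+ libraries Kit was at 47.0 and 44.3 CPM, and most gated cells carried neutrophil granule transcripts, with the 6 secondary granule markers summing to 62671 and 58799 CPM. The label is therefore used here as the name of the libraries and not of a progenitor population. The leukaemia libraries expressed Xist (1450 and 726 CPM) and almost no Uty (0.0228 and 0.0420 CPM), and the c-Kit+ libraries the reverse (Xist 0.0576 and 0.052 CPM, Uty 59.0 and 56.7 CPM). The sex of the cells and the leukaemia thus cannot be told apart.

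Promoters of the nuclear subunits are shown first, because the results turn on genes that lay in the same or in opposite directions. RefSeq windows (GRCm38.p6, from 250 bases before to 50 after the start) matched 65 of the 77 nuclear subunits at 5 CPM or more, with 70 windows. Subunits without a matched window included Cox4i1, Sdhc, Uqcrc2 and Uqcrq. The cores of 3 factors known to bind promoters of respiratory genes were searched on both strands. The NRF1 core GCGCANGC was in 34.3% of the subunit windows, in 9.95% of all windows of that length and in 20.4% of windows of genes at 5 CPM or more. The ETS core CCGGAAG, which the GABP factor reads, was in 24.3%, 8.86% and 19.5% in that order. The YY1 core AAGATGGC was in 14.3%, 2.75% and 4.84%. Of the subunit windows 58.6% held at least 1 of the 3, beside 38.2% of windows of genes at 5 CPM or more. Below are 3 complex I promoters, each with a different core, and the promoter of the complex III subunit that was highest in KO leukaemia, which holds none of these letters. These are examples only. The window of Uqcrc1, also higher in KO leukaemia, held the NRF1 core, and that of Ndufa4, the lowest of complex IV there, held no core. Whether a core went with a lower level was not tested. Capitals mark the matched core as it lies on the gene's strand, and a match is a description of letters, not evidence of binding.

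Ndufa5 (chr6:24527641-24527940, minus strand, NRF1 core, 1 of its windows): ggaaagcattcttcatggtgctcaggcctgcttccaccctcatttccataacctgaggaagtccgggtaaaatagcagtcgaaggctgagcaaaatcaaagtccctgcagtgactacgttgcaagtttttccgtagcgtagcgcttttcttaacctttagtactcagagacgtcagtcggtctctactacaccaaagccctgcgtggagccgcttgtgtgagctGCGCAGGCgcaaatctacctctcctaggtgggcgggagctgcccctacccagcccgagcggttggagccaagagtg
Ndufc1 (chr3:51408906-51409205, minus strand, YY1 core): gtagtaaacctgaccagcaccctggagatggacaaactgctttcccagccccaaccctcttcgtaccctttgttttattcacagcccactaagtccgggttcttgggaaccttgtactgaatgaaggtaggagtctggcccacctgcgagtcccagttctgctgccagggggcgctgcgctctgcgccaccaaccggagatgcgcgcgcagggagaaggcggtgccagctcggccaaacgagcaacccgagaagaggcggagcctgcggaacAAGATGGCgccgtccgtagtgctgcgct
Ndufb6 (chr4:40279372-40279671, minus strand, ETS core read from the opposite strand): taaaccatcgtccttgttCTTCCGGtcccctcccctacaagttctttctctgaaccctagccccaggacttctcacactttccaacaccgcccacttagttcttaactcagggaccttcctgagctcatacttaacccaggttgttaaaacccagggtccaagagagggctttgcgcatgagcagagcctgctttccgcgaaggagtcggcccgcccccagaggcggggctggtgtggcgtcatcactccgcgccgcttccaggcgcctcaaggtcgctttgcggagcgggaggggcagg
Uqcrfs1 (chr13:30545267-30545566, minus strand, none of the cores): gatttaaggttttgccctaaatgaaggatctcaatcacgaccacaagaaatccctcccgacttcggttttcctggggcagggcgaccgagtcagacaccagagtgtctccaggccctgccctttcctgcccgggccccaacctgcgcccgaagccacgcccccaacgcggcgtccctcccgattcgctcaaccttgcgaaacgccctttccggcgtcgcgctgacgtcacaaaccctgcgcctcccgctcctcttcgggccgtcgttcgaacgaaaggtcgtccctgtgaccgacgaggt

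The mitochondrial genes need a second set of sequences, because UMIs at their 3′ ends cannot all be told from nuclear copies. The transcripts of mt-Co1, mt-Co2, mt-Atp6, mt-Co3, mt-Nd3 and mt-Nd4l end, but for at most a few final bases, in stretches that stand letter for letter in listed unprocessed pseudogenes on chromosome 1 (chr1:24612407-24616197, GRCm38). The other 7 mitochondrial genes had no such copy among the listed genes. From the GENCODE M21 transcripts, the last 90 bases that mt-Co3 (chrM:8607-9390, plus strand, 784 bases) shares with its copy Gm28437 (783 bases) are given. For mt-Cytb (chrM:14145-15288, plus strand), which has no such copy, the last 90 bases of the transcript are given.

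mt-Co3: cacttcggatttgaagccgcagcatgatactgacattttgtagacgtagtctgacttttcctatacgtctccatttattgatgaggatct
mt-Cytb: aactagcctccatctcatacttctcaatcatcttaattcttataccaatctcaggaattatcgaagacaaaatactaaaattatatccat

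The copies themselves were at 0.0231 to 2.94 CPM. How reads that fit both places were counted is not given in the sources used here, so the 6 copied genes are reported but kept apart where a statement rests on them. Among nuclear members 20 had a near-identical copy, 11 of them subunits.

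Summed over all members, nuclear transcripts made up 20228 CPM in WT c-Kit+ cells, 21966 in KO c-Kit+ cells, 15655 in WT leukaemia and 11997 in KO leukaemia. The 13 mitochondrial transcripts summed to 5297, 4789, 5929 and 4035 CPM. KO leukaemia thus had the lowest sum of both kinds. KO c-Kit+ cells had the highest nuclear sum but a lower mitochondrial sum than their WT. Per cell the means were 142, 159, 107 and 100.2 nuclear UMIs and 37.1, 34.7, 40.7 and 33.7 mitochondrial UMIs. In such sums, fewer cells of a type and less RNA per cell cannot be told apart.

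**Figure D1:**
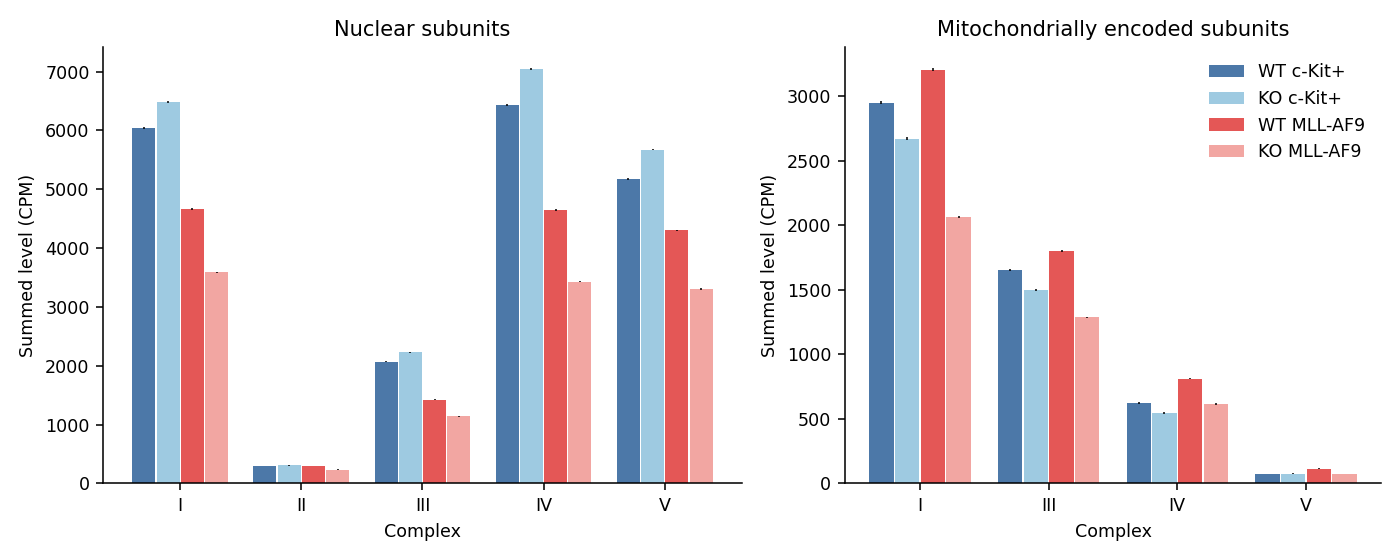
Summed level in CPM of the nuclear subunits of complexes I to V (left) and of the mitochondrially encoded subunits (right) in the 4 libraries, with bars for the sums and thin lines for 95% counting intervals. Nuclear sums were highest in KO c-Kit+ cells and lowest in KO MLL-AF9 cells in each complex. On this CPM scale mitochondrial sums of complexes I, III, IV and V were highest in WT MLL-AF9 cells. The mitochondrial genes of complex IV all have a nuclear copy, as has mt-Atp6 of complex V.

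The first comparison asks what loss of Rbm5 went with in leukaemia. The nuclear sum in KO MLL-AF9 cells was 0.766 of that in WT MLL-AF9 cells (0.764 to 0.768), and the mitochondrial sum was 0.681 (0.678 to 0.683). Of the 82 nuclear members at a mean of 5 CPM or more, 75 were lower in KO leukaemia and 7 higher. Over all genes at that level, 25.5% were higher. By 1.5-fold or more, 24 of the 82 were lower and 0 higher, beside 35.2% and 9.57% of all genes. The median log2 ratio of the nuclear members, -0.39, equalled that of all genes, -0.39, so the members were lower to the same extent as the typical gene. With median-ratio size factors in place of the UMI total, 37 members were higher and 45 lower, the median of the members was -0.05 and that of all genes -0.05. On that scale 45.8% of all genes were higher.

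Complex I showed the widest range. Its 36 nuclear subunits summed to 6038, 6482, 4663 and 3588 CPM (WT then KO c-Kit+ cells, WT then KO leukaemia, the order used throughout), and 34 were lower in KO leukaemia. Ndufa5, an accessory subunit (gene at chr6:24518666-24528013), was at 120, 123, 57.3 and 26.7 CPM. Its levels in both c-Kit+ libraries lay above those in both leukaemias, and KO leukaemia was lowest, at 0.465 of WT (0.443 to 0.488, log2 ratio -1.08). Ndufc1, a small accessory subunit of the membrane arm (chr3:51404677-51408988), was at 179, 196, 146 and 72.0 CPM, a log2 ratio of -1.01 in leukaemia. Unlike Ndufa5 it was nearer to its c-Kit+ level in WT leukaemia, and the KO leukaemia library alone lay well below the rest. Ndufb11, also of the membrane arm and with a near-identical copy, was at 381, 407, 258 and 255 CPM, so that the leukaemia libraries differed by a log2 ratio of only -0.01. The 2 complex I subunits above 0 in KO leukaemia were Ndufa10 (log2 ratio 0.03) and Ndufv1 (0.02), the latter being the flavoprotein that takes electrons from NADH.

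Complex II, succinate dehydrogenase, summed to 296, 304, 290 and 233 CPM, and all 4 of its subunits were lower in KO leukaemia. Sdha, its flavoprotein, was at 71.2, 68.1, 69.9 and 46.4 CPM (log2 ratio -0.58), level in 3 libraries and low in KO leukaemia. Sdhb, its iron-sulfur subunit, was at 78.8, 82.2, 62.3 and 61.4 CPM, with a log2 ratio of -0.02 whose interval included equality (ratio 0.986, 0.950 to 1.02). The membrane anchors differed likewise, with log2 ratios of -0.63 for Sdhc and -0.19 for Sdhd. The 4 assembly factors were lower as well, from Sdhaf2 at -0.37 to Sdhaf3 at -1.18, the latter on a low level of 13.7 and 5.52 CPM.

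Complex III was split. Its subunits summed to 2066, 2226, 1418 and 1143 CPM, with 5 of 8 lower in KO leukaemia and 3 higher. Uqcrfs1, the Rieske iron-sulfur protein (chr13:30540308-30545362), was at 150, 171, 77.6 and 92.7 CPM. It had the highest log2 ratio of the 82 members in leukaemia, 0.25 (ratio 1.19, 1.16 to 1.23). Within complex III the core proteins Uqcrc1 and Uqcrc2 followed at 0.09 and 0.05. Uqcr11, a small accessory subunit with a near-identical copy, was at 291, 309, 199 and 116 CPM, a log2 ratio of -0.78, and Uqcr10, another, was at -0.73. The other small subunits lay between, with Uqcrh at -0.09, Uqcrq at -0.23 and Uqcrb, which has near-identical copies, at -0.48.

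Complex IV, cytochrome c oxidase, summed to 6427, 7044, 4649 and 3431 CPM, and 11 of its 12 subunits at level were lower in KO leukaemia. Ndufa4, named for complex I but a subunit of complex IV (chr6:11900292-11907497), was at 1003, 1109, 616 and 336 CPM. Its KO to WT ratio in leukaemia was 0.546 (0.539 to 0.554). Cox4i1, the regulatory subunit that is assembled early (chr8:120668222-120674207, overlapped on its own strand by the gene model Gm20388), was at 862, 1032, 499 and 504 CPM. It was the complex IV subunit with the highest ratio, at 1.01 (0.996 to 1.02), an interval that includes equality. Cox7b was at -0.78 and Cox5b at -0.05 on the log2 scale.

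Complex V, ATP synthase, summed to 5178, 5675, 4302 and 3303 CPM, and all 17 of its subunits at level were lower in KO leukaemia. Atp5k, the e subunit of the membrane part (chr5:108433244-108434448), was at 185, 195, 175 and 93.7 CPM, a log2 ratio of -0.90. Atp5d, the delta subunit of the central stalk, was at 211, 245, 154 and 147 CPM, a log2 ratio of -0.07. The catalytic beta subunit Atp5b was at -0.10 and the gamma subunit Atp5c1 at -0.09, but the epsilon subunit Atp5e of the same central part was at -0.53. Subunits of the membrane part and outer stalk ranged from Atp5h (-0.17, with a near-identical copy) and Atp5pb (-0.23) to Atp5j2 (-0.76) and Atp5k. As KO over WT of the sums in leukaemia, complexes I to V stood at 0.769, 0.802, 0.806, 0.738 and 0.768. With size factors these ratios were 0.978, 1.02, 1.02, 0.938 and 0.976. On that scale 15 of 36, 2 of 4, 5 of 8, 5 of 12 and 9 of 17 subunits were higher, beside 45.8% of all genes. The directions given by complex in leukaemia thus rest on scaling to the UMI total.

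The 27 nuclear members with a mean below 5 CPM in the pair compared are not in these counts. They are the 14 pseudogenes (at most 3.38 CPM in WT c-Kit+ cells), the 6 gene copies, Ndufa4l2, Cox4i2, Cox7a1, Cox7b2, Cox8b, Cox8c and a second Atp5o identifier that overlaps Donson on chromosome 16 and was at 0.807, 1.14, 3.62 and 5.89 CPM. Among tissue isoforms, Cox4i2, the lung and hypoxia form of Cox4i1, was at 0.888, 1.10, 0.126 and 0.399 CPM. Cox7a1, the heart and muscle form of Cox7a2, was at 0.623, 0.697, 2.72 and 1.59 CPM, where Cox7a2 was at 490, 521, 430 and 285 CPM. Cox7b2, Cox8b, Cox8c and Ndufa4l2 lay at or under the limit of 3 UMIs per library (0.0312 to 0.0346 CPM). Cox6b2, known as the testis form of Cox6b1, was present in every library at 65.1, 68.6, 70.5 and 63.1 CPM, beside 417, 442, 333 and 246 CPM for Cox6b1. In WT c-Kit+ cells it was at 247 CPM in the erythroid gate, 62.5 CPM in the primary granule gate and 11.3 CPM in the B lineage gate. The isoform pairs thus kept the common form as the one with more UMIs in each library, and Cox6b2 was the only 1 of the alternative forms just named above 5 CPM.

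**Figure D2:**
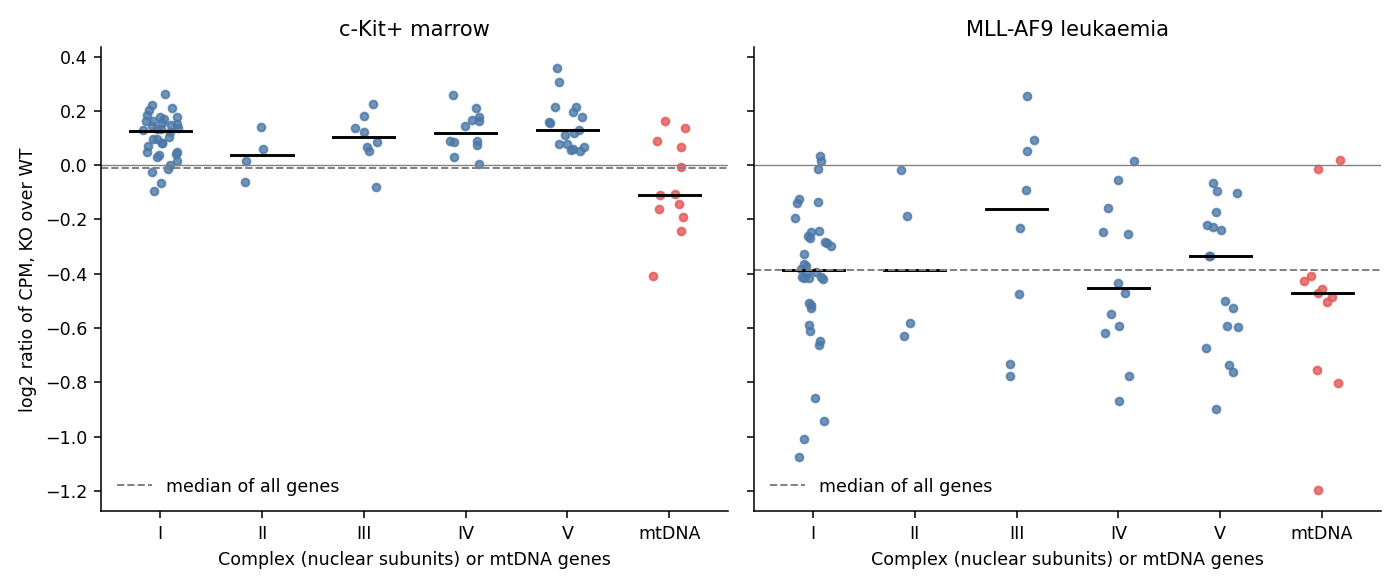
Log2 ratio of CPM, KO over WT, of each member at 5 CPM or more by complex, in c-Kit+ marrow (left) and MLL-AF9 leukaemia (right); black bars are medians of a complex and the dashed line is the median of all genes. In c-Kit+ cells the medians of the nuclear complexes lie above the median of all genes (-0.01); the mitochondrially encoded median lies below it, but that of the 7 mitochondrial genes without a nuclear copy is -0.01; in leukaemia most points lie below 0, around the median of all genes (-0.39).

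Mitochondrially encoded members were lower in KO leukaemia in 10 of 11 at 5 CPM or more, 3 of them by 1.5-fold or more, and in 7 of the 7 without a nuclear copy. Over all genes 25.5% were higher and 35.2% lower by 1.5-fold or more. The median of those 7 was -0.48 and, with size factors, -0.14. mt-Nd1, a core membrane subunit of complex I, was at 1036, 926, 1417 and 840 CPM (log2 ratio in leukaemia -0.75). mt-Cytb, the catalytic subunit of complex III, was at 1654, 1498, 1798 and 1285 CPM (-0.48). mt-Atp8, a small subunit of complex V, was at 45.8, 48.0, 94.8 and 53.9 CPM (-0.80). In all 3 of these genes the WT leukaemia library was the highest of the 4 and the KO leukaemia library was well below it.

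The further complex I genes ordered differently. mt-Nd2 was at 489, 486, 378 and 266 CPM, mt-Nd4 at 1071, 904, 917 and 662, and mt-Nd5 at 257, 274, 239 and 174, with the highest value in a c-Kit+ library each time. mt-Nd6, the only protein gene on the other strand of the mitochondrial DNA (chrM:13552-14070, minus strand), was at 14.3, 16.1, 33.3 and 24.5 CPM. Of the 6 copied genes, mt-Nd3 had the lowest KO to WT ratio in leukaemia, at 80.8, 60.6, 221 and 95.7 CPM (log2 ratio -1.20). mt-Co1, the catalytic subunit of complex IV, was at 596, 521, 796 and 600 CPM. mt-Co3 was at 15.6, 14.4, 10.2 and 10.4 CPM, mt-Co2 at 9.98, 9.20, 4.48 and 4.02, mt-Atp6 at 24.9, 27.5, 18.3 and 18.1, and mt-Nd4l at 3.54, 3.39, 1.86 and 1.21. These last 4 were lower in both leukaemias than in both c-Kit+ libraries.

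**Figure D3:**
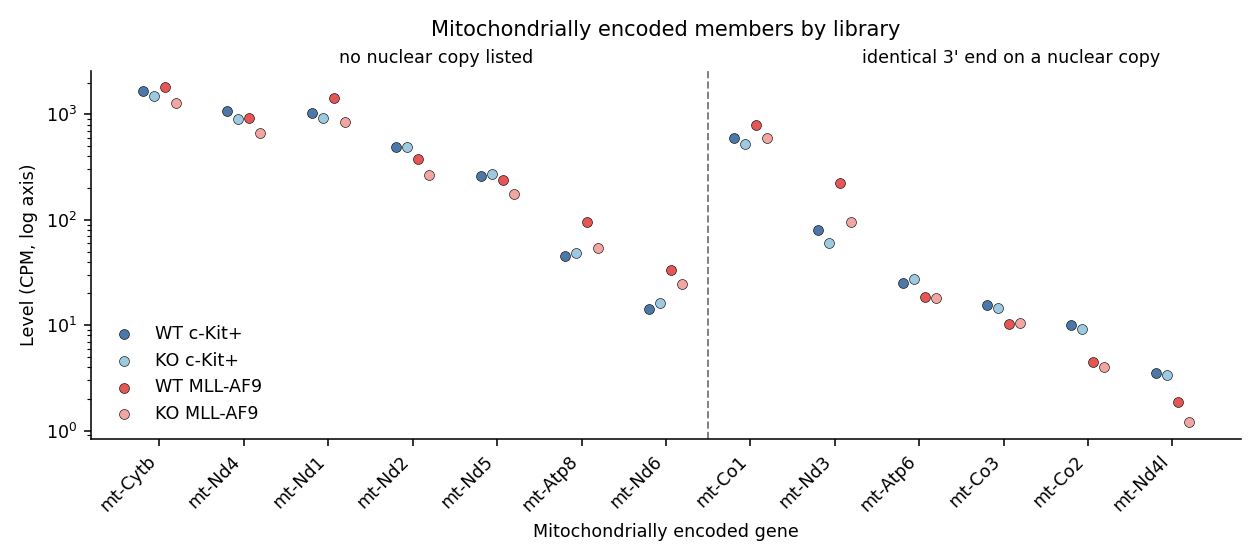
Level in CPM, on a log axis, of each mitochondrially encoded member in the 4 libraries (1 point each), with genes that have no listed nuclear copy at left and genes whose 3′ end is identical in one at right. The KO MLL-AF9 point is the lowest of the 4 for mt-Cytb, mt-Nd4, mt-Nd1, mt-Nd2 and mt-Nd5, and WT MLL-AF9 is the highest for mt-Cytb, mt-Nd1, mt-Atp8, mt-Nd6, mt-Co1 and mt-Nd3.

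Other properties of the leukaemia libraries moved with this comparison. Secondary granule markers summed to 18665 CPM in WT and 41255 CPM in KO leukaemia, mitotic markers to 1136 and 716 CPM, and monocytic markers to 711 and 425 CPM, with no marker of these sets at 0. Immediate early and stress-linked transcripts were higher in the KO leukaemia library, among them Fos (37.6 and 1633 CPM) and Klf2 (85.2 and 5938 CPM). Their part in the lower levels of the members was not tested. With the same weight for each marker gate in both libraries, the nuclear ratio was 0.820 and the mitochondrial ratio 0.792, against 0.766 and 0.681.

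Within marker gates the nuclear sum was lower in KO leukaemia in 9 of the 9 gates with 50 or more cells in both libraries. Most other genes were lower in these gates too: from 20.7% (erythroid) to 38.0% (T and NK) of all genes at level were higher. The median log2 ratio of the nuclear members lay above that of all genes in 3 of the 9 gates. The nuclear ratio was smallest in the primary granule gate, at 0.739 (0.734 to 0.744), where cells carry Mpo, Elane, Prtn3, Ctsg or Ms4a3 and the sums were 18391 and 13593 CPM. It was 0.780 in the secondary granule gate, 0.807 in the late neutrophil gate, 0.889 in the monocytic gate and 0.936 in the T and NK gate. The mitochondrial sum was lower in 8 of the 9, with the class II gate above equality at 1.06 (1.02 to 1.10). The gates hold cells of like markers and not of like state: the primary granule markers summed to 15980 CPM in that gate in WT leukaemia and 20510 CPM in KO leukaemia.

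In c-Kit+ marrow the same comparison gave small differences with a common direction among nuclear genes. The nuclear sum in KO cells was 1.086 of WT (1.084 to 1.088), and the mitochondrial sum was 0.904 (0.9004 to 0.9078). Of the 82 nuclear members at level, 74 were higher in KO cells, beside 47.0% of all genes. None was past 1.5-fold, beside 0.261% of all genes higher and 0.199% lower. The median log2 ratio was 0.12 for the members and -0.01 for all genes. With size factors 75 were higher and the medians were 0.13 and 0.01.

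By complex, 31 of 36 subunits of complex I, 3 of 4 of complex II, 7 of 8 of complex III, 12 of 12 of complex IV and 17 of 17 of complex V were higher in KO c-Kit+ cells. In complex I the ratios ran from Ndufb1, a small membrane subunit (371 and 347 CPM, log2 ratio -0.09), to Ndufs8, an iron-sulfur subunit (67.3 and 81.0 CPM, 0.26). In complex II they ran from Sdha at -0.06 to Sdhc at 0.14. In complex III the lowest was Uqcrc2 (97.0 and 91.6 CPM, -0.08) and the highest Uqcrq, a small membrane subunit (267 and 312 CPM, 0.22). Cox7c was level at 556 and 557 CPM, whereas Cox4i1 stood at 0.26. In complex V, Atp5e, the epsilon subunit, was the lowest at 0.05. Atp5g1, 1 of 3 genes for the c subunit of the rotating ring (chr11:96068852-96075670), was at 294, 363, 185 and 116 CPM, a log2 ratio of 0.30 in c-Kit+ cells. The other c subunit genes stood likewise, Atp5g3 at 0.20 and Atp5g2, which has near-identical copies, at 0.36. The counting interval of the Atp5g1 ratio lay above equality (1.24, 1.22 to 1.26), but no replicate library gives the spread between animals.

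Of the 12 mitochondrial members at level in this comparison, 8 were lower in KO cells, and of the 7 without a nuclear copy 4 were, where 47.0% of all genes were higher. The median of those 7 was -0.01, as for all genes, and with size factors 3 of the 7 were lower. The sum of the 7 was 0.909 of WT (0.905 to 0.913), and mt-Nd1, mt-Nd4 and mt-Cytb made up most of it. mt-Nd3 (log2 ratio -0.41), mt-Nd4 (-0.24), mt-Co1 (-0.19), mt-Nd1 (-0.16) and mt-Cytb (-0.14) were the lowest. mt-Nd6 (0.16), mt-Atp6 (0.14), mt-Nd5 (0.09) and mt-Atp8 (0.07) were higher. Nuclear members per mitochondrial UMI therefore stood at 3.82 in WT and 4.59 in KO c-Kit+ cells, a change of 1.20-fold (1.196 to 1.207). Without the copied genes the values were 4.43 and 5.29.

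This contrast between the nuclear and mitochondrial members was present across the marker gates of the c-Kit+ libraries. The nuclear to mitochondrial ratio was higher in KO in 14 of the 14 gates with 50 or more cells in both libraries, and its interval lay above 1 in 13. It ran from 1.01 in the T and NK gate (0.958 to 1.06) to 1.79 in the macrophage gate (1.69 to 1.90), a gate of 114 cells in each library. In stem and multipotent progenitor cells nuclear members summed to 17968 (WT) and 20790 CPM (KO), which makes the latter 1.16 times the former (1.14 to 1.17), and mitochondrial members to 7383 and 6845 CPM. In the primary granule gate the nuclear ratio was 1.08 and the mitochondrial ratio 0.857. The erythroid gate was the only one with a lower nuclear sum in KO cells, at 0.961 (0.957 to 0.966), with a mitochondrial ratio of 0.855. The gates come from the same pair of libraries and are not independent observations. Transcripts of other cells were present in every gate: secondary granule markers reached 7751 CPM in the B lineage gate of WT c-Kit+ cells. Primary granule markers summed to 999 CPM in WT and 3908 CPM in KO in the class II gate. In the same order they were at 3923 and 6778 CPM in the macrophage gate and 1554 and 3423 CPM in the B lineage gate. They were lower in KO in the T and NK gate (4205 and 3157 CPM) and in the primary granule gates themselves. The part of such transcripts in the gate ratios was not tested. Marker sums of the WT and KO c-Kit+ libraries were 8339 and 9490 CPM for primary granule, 1595 and 1680 CPM for mitotic, 2800 and 2315 CPM for late neutrophil and 542 and 366 CPM for basophil and mast markers. Their part in the small differences was not tested, and with the same gate weights in both libraries the ratios were 1.07 for nuclear and 0.884 for mitochondrial members.

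**Figure D4:**
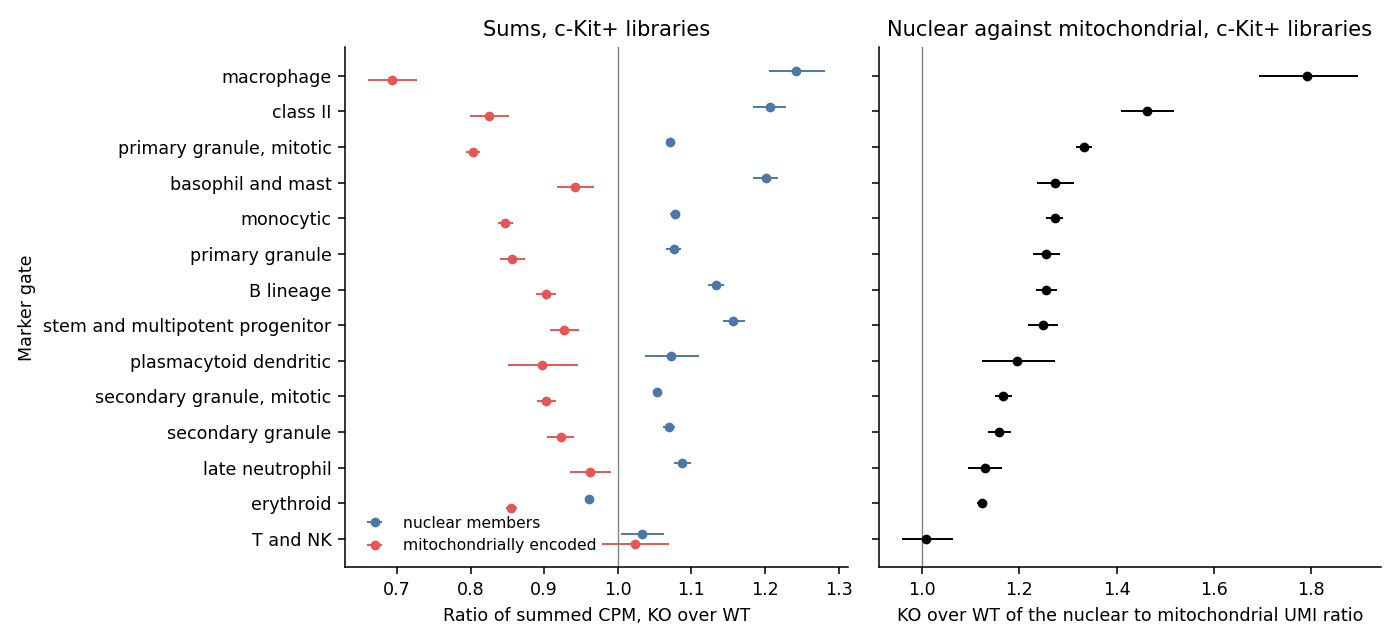
KO over WT within each marker gate of the c-Kit+ libraries, as the ratio of summed CPM of nuclear (blue) and mitochondrially encoded members (red) at left and as the ratio of the nuclear to mitochondrial UMI ratios at right; lines are 95% counting intervals. Nuclear points lie above 1 in 13 of 14 gates and mitochondrial points below 1 in 13 of 14; the right panel runs from 1.01 to 1.79.

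In leukaemia the nuclear members per mitochondrial UMI were 2.64 in WT and 2.97 in KO, a change of 1.13-fold (1.12 to 1.13). That change was not general within gates, where it was above 1 in 4 of 9 and below 1 in 5 of 9, from 0.742 in the class II gate to 1.16 in the erythroid gate. The interval left out 1 in 7 of the 9 and included it in the mitotic parts of the primary and secondary granule gates (0.990, 0.973 to 1.01, and 1.001, 0.984 to 1.02). In the primary granule gate it was 0.816 (0.805 to 0.827), opposite to the pooled value.

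The KO effects of the leukaemia and c-Kit+ comparisons, which share no library, were set side by side. The difference of the log2 ratios (leukaemia minus c-Kit+) was below 0 in 79 of 82 nuclear members, with a median of -0.51, beside 73.5% of all genes and a median of -0.39. Of the 82, 69 (84.1%) were lower in KO leukaemia and higher in KO c-Kit+ cells, beside 36.8% of all genes. In complexes IV and V the difference was below 0 in all 12 and all 17 subunits at level, and in complex III in 6 of 8, the exceptions being Uqcrfs1 and Uqcrc2. The differences have no test, and the leukaemia part depends on the scaling given above.

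WT leukaemia against WT c-Kit+ cells was the next comparison, with the sex of the cells and the cell types differing along with the leukaemia. It shares its WT libraries with the KO comparisons, so their values are given side by side and not as separate evidence. The nuclear sum in leukaemia was 0.774 of that in c-Kit+ cells (0.772 to 0.775), and the mitochondrial sum was 1.12 (1.11 to 1.12). With size factors the mitochondrial sum lay on the other side of equality, at 0.921, and at 0.879 without the copied genes. Of 82 nuclear members, 65 were lower in leukaemia and 17 higher, where 66.1% of all genes were higher. By 1.5-fold or more, 23 were lower and 1 higher, beside 11.2% and 32.7% of all genes. The median log2 ratio was -0.29 for the members and 0.27 for all genes, and with size factors -0.57 and 0.01. On that scale 77 of the 82 members were lower, and 5049 of the 10038 genes at level were higher. The members thus lay below the typical gene under both scalings.

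All 8 subunits of complex III were lower in WT leukaemia, with a summed ratio of 0.687 (0.682 to 0.692). Complex II was nearly level at 0.980 on the CPM scale. With size factors complex II stood at 0.806, with all 4 subunits lower, and complex III at 0.565. Ndufb6, a membrane subunit of complex I (chr4:40270591-40279421, overlapping Smim27 on the other strand), was lowest at 162, 179, 63.7 and 51.6 CPM, a log2 ratio of -1.33. Ndufb8 (-1.21), Cox5b (-1.08), Ndufb9 (-1.06) and Ndufa5 (-1.06) followed, of which Cox5b belongs to complex IV and the rest to complex I. The only nuclear member higher by 1.5-fold was Cox7a2l, which joins complexes III and IV into supercomplexes (chr17:83501918-83517330). It was at 121, 131, 219 and 228 CPM, so that both leukaemias lay above both c-Kit+ libraries (WT log2 ratio 0.85). Of the 12 mitochondrial members at level 6 were higher, and 4 of the 7 without a nuclear copy, beside 66.1% of all genes. Among them were mt-Nd3 (1.44, a copied gene), mt-Nd6 (1.17) and mt-Atp8 (1.03). The copied gene mt-Co2 was lowest, at 9.98 CPM in c-Kit+ cells and 4.48 CPM in leukaemia. With size factors 5 of the 12 and 3 of the 7 were higher. On the CPM scale the mitochondrial ribosomal RNAs moved the same way as the mitochondrial sum, mt-Rnr1 at 363 and 1567 CPM and mt-Rnr2 at 1806 and 2755 CPM.

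The gates differed in this comparison. Nuclear members in WT leukaemia were at 0.551 of c-Kit+ cells in the primary granule gate (0.547 to 0.556), 0.592 in its mitotic part and 0.536 in the monocytic gate. They were at 1.11 in the secondary granule gate and 1.02 in the late neutrophil gate, where 83.5% and 79.7% of all genes were higher. The median log2 ratios there were 0.27 and 0.12 for the nuclear members and 0.67 and 0.62 for all genes. The median of the nuclear members lay above that of all genes in 0 of the 12 gates. Ndufa4 alone stood at 2283 CPM in the primary granule gate of WT c-Kit+ cells and 771 CPM in that of WT leukaemia. Mitochondrial members were at 0.797 in the primary granule gate but 1.91 in the secondary granule gate and 2.38 in the macrophage gate. The nuclear to mitochondrial ratio was lower in leukaemia in 11 of 12 gates, the class II gate being the exception at 1.10 (1.06 to 1.14). The primary granule markers summed to 42500 CPM in that gate in c-Kit+ cells and 15980 CPM in leukaemia, so that cells of the gate were not at a matched stage.

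In the KO libraries, which share no sample with the WT pair but share 1 library with each KO comparison above, 80 of 82 nuclear members were lower in leukaemia than in c-Kit+ cells and 58 were lower by 1.5-fold or more, with 1 higher by that fold (Cox7a2l, log2 ratio 0.79). Over all genes 47.6% were higher, 25.4% lower by 1.5-fold and 23.2% higher by 1.5-fold. The median was -0.85 for members and -0.04 for all genes. The nuclear sum stood at 0.546 of c-Kit+ cells and at 0.379 (0.375 to 0.382) in the primary granule gate. Ndufa5 had the lowest log2 ratio, -2.16, and Ndufa4 stood at -1.72.

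Maturation of neutrophils within the c-Kit+ libraries went with larger differences in the member sums than the comparisons between whole libraries. From the primary granule gate through the secondary granule gate to the late neutrophil gate (Cxcr2, Retnlg, Mmp9, Mmp8, Il1r2 and Csf3r), mitotic cells included, the nuclear sum in WT c-Kit+ cells was 33472, 13735 and 8823 CPM. This is a 3.79-fold lower sum in late neutrophils. The mitochondrial sum was 8530, 2155 and 1355 CPM, 6.29-fold lower. All 82 nuclear members were lower in the late gate, beside 66.4% of all genes, with a median of -1.96 against -0.91. In KO c-Kit+ cells the nuclear sums were 35886, 14612 and 9595 CPM (3.74-fold) and all 82 were lower, beside 66.0%.

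In leukaemia the gates lay closer together. The nuclear sums were 19104, 14347 and 8999 CPM in WT leukaemia (2.12-fold), with 81 of 82 members lower in the late gate beside 67.8% of all genes, and 14444, 11204 and 7265 CPM in KO leukaemia (1.99-fold), with 80 of 82 beside 68.7%. The exceptions were Sdhaf2 (log2 ratio 0.10) in WT leukaemia, and Sdhb (0.21) and the Atp5o identifier that overlaps Donson (2.08) in KO leukaemia. The late gates of the 4 libraries held similar nuclear sums, 7265 to 9595 CPM, whereas the primary gates ran from 14444 to 35886 CPM. Mitochondrial sums were 4.57-fold and 4.66-fold lower in the late gate of WT and KO leukaemia.

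The members varied widely along this path. Atp5g1 was at 707, 64.9 and 23.4 CPM in the 3 gates of WT c-Kit+ cells (log2 ratio of late over primary -4.86), the lowest of the nuclear members there. Ndufa5 was at 230, 56.1 and 21.5 CPM, and Cox6b2 at 61.3, 20.1 and 3.52 CPM (-3.78). At the other end Ndufa13, a complex I subunit also studied as a cell death regulator, was at 243, 203 and 211 CPM (-0.20), and Sdhaf2 was at 30.3, 24.8 and 29.3 CPM (-0.05). Subunits of 1 enzyme thus did not keep a common ratio: complex I held both Ndufa13 and Ndufb5, its lowest, at -3.51. Among the mitochondrial genes mt-Nd1 was at 1663, 319 and 183 CPM (-3.18) and mt-Co1, a copied gene, at 738, 461 and 344 CPM (-1.10). Granule transcripts took a large share of the total in the later gates (secondary granule markers 134900 CPM in the non-mitotic secondary granule gate and 2359 CPM in the non-mitotic primary granule gate). Their part in the lower CPM of the members was not tested. Moving the late neutrophil gate to 1 marker more left 1605 of 2304 cells in WT c-Kit+ marrow.

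**Figure D5:**
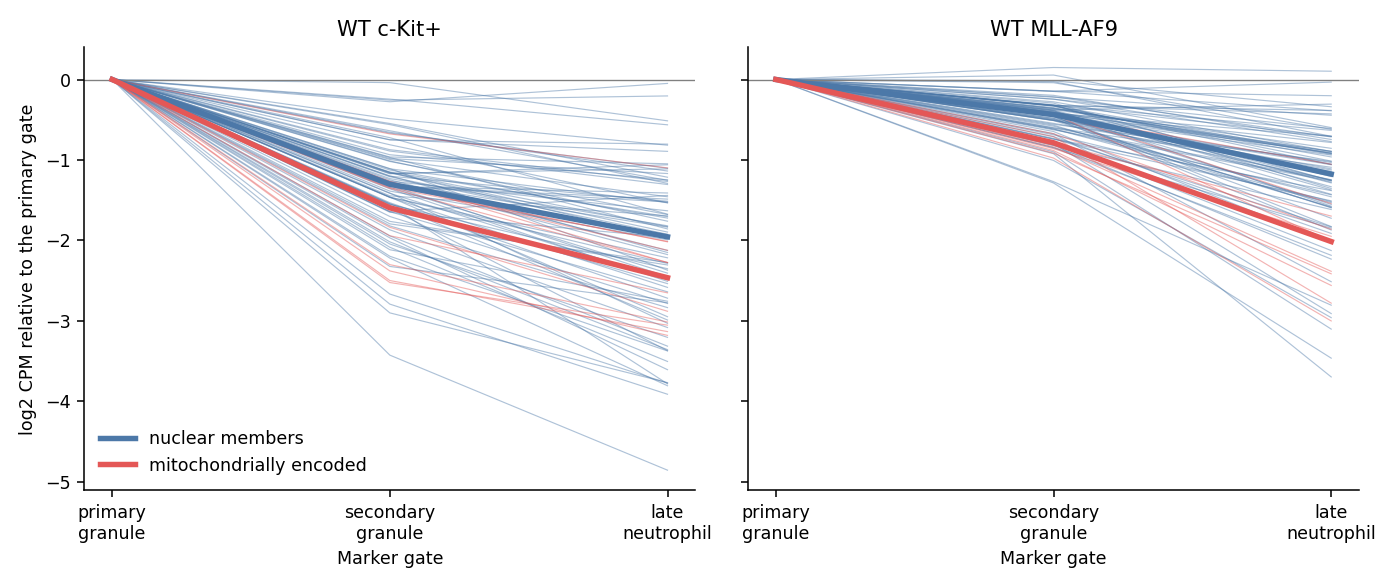
Log2 CPM relative to the primary granule gate of each member at 5 CPM or more (thin lines; nuclear blue, mitochondrially encoded red) and the medians of each kind (thick lines), in WT c-Kit+ (left) and WT MLL-AF9 cells (right). Medians in the late neutrophil gate lie at -1.96 for nuclear members in WT c-Kit+ cells and -1.17 in WT MLL-AF9 cells, with Atp5g1 lowest in the former at -4.86.

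Genes outside the complexes that serve them were taken from lists. For their counts, 25.5% of all genes were higher in KO leukaemia and 47.0% in KO c-Kit+ cells, and genes named as highest or lowest are those at a mean of 20 CPM or more. Mitochondrial ribosomal proteins, which make up the ribosome that translates the 13 mitochondrial genes, followed the nuclear members: 70 of 78 at level were higher in KO c-Kit+ cells (median 0.10) and 74 of 77 lower in KO leukaemia (median -0.44, and -0.10 with size factors). Mrpl42 was lowest in KO leukaemia (78.2 and 37.3 CPM in WT and KO, -1.05) and Mrpl32 highest (0.28). In WT leukaemia against c-Kit+ cells 69 of 78 were lower (median -0.47). Assembly factors of the complexes, mostly proteins that build them without staying, were lower in KO leukaemia in 40 of 48. In KO c-Kit+ cells 34 of 50 were higher. Timmdc1 was lowest (32.9 and 11.6 CPM, -1.43) and Ndufaf7 highest (25.7 and 51.0 CPM, 0.96) in leukaemia. This list also holds Cox7a2l, already counted among the nuclear members. Of tricarboxylic acid cycle genes 15 of 18 were lower in KO leukaemia and 12 of 18 higher in KO c-Kit+ cells.

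The genes that transcribe and handle mitochondrial RNA were lower in KO leukaemia in 23 of 27 and higher in KO c-Kit+ cells in 17 of 30. Slirp, which stabilises mitochondrial messenger RNA, was lowest of those at a mean of 20 CPM or more, at 49.0 and 23.3 CPM (-1.04). Of the mitochondrial translation factors 8 of 10 were lower in KO leukaemia and 4 of 9 higher in KO c-Kit+ cells. Of the electron carrier and ubiquinone genes 13 of 17 were lower in KO leukaemia, near the share of all genes (25.5% higher), with a median of -0.01 with size factors and with Coq10b far above the rest at 21.03 and 90.4 CPM (2.05), and 8 of 17 were higher in KO c-Kit+ cells. With size factors the leukaemia medians were -0.18 for assembly factors and -0.03 for the tricarboxylic acid cycle. They were -0.04 for RNA handling and -0.25 for translation factors, beside -0.05 for all genes. Among regulators of mitochondrial gene expression 8 of 10 were lower in KO leukaemia (median -0.05 with size factors, as for all genes) and 2 of 11 higher in KO c-Kit+ cells. Nrf1, whose core is shown in the Ndufa5 promoter, was at 89.0, 81.1, 123 and 64.0 CPM (-0.93 in leukaemia). A link between the levels of Nrf1 and of Ndufa5 was not tested. Of the inner membrane carriers 5 of 9 were higher in KO leukaemia, with Ucp2 highest (354 and 432 CPM, 0.29), and 8 of 9 higher in KO c-Kit+ cells. Their leukaemia median was 0.07, and 0.41 with size factors, above that of all genes on each scale. These lists were chosen with earlier results of the data known, and their counts are to be read beside the shares of all genes given for each comparison.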

How the data were processed

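RNA of single cells was captured in droplets, in 4 libraries, 1 per group, with replicate number 1 in each. For each library the authors deposited a matrix of unnormalized UMI counts. Cell Ranger 7.1.0 and the mm10 build are named, per the submitters' processing notes; the gene annotation and the treatment of reads that fit several places or of strand are not given in the sources used here. A poly-dT primer starts the cDNA, per the labels' protocols, so that UMIs come mostly from 3′ ends.

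Cells with under 500 genes, under 1000 UMIs or over 10% mitochondrial UMIs were left out, which caps the mitochondrial members; between 57 and 496 barcodes per library were over that limit. Doublets called by Scrublet per library (scanpy 1.11.5, expected rate 0.08; 3.09% to 4.46% called) were removed. This kept 12370 of 13480, 13284 of 14577, 12768 of 14167 and 11406 of 12762 barcodes (WT then KO c-Kit+ cells, WT then KO leukaemia). UMIs were summed over kept cells and divided by the library sum to give CPM. Log2 ratios used a pseudocount of 1 CPM and genes whose mean over the compared libraries was at least 5 CPM; differences past 1.5-fold were counted. UMI sums have exact Poisson intervals and ratios exact conditional binomial intervals, at 95%; intervals of changes in the nuclear to mitochondrial ratio are normal on the log scale. All cover counting error only, and UMIs of 1 cell are not independent animals. No test was possible with 1 library per group. Ratios and intervals were tested on simulated data drawn with counting error alone, which does not cover the spread between cells or animals.

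Marker gates required 3 or 4 markers of a set with a UMI and, for granule sets, 50 or 200 UMIs per 10000; cells with 4 mitotic markers were split off. Thresholds were set after seeing marker levels, without member values. Cells in no gate made up 9.09% to 29.0%. Near-identical copies are listed genes that match the last 300 bases of a transcript over 90 or more bases at 98% or more (blastn 2.17.0, GENCODE M21 on GRCm38, also the source of gene positions). Promoters are from RefSeq.

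Named genes are all mitochondrial members, in each complex the highest and lowest log2 ratio of each KO comparison at 50 CPM or more, tissue isoforms, and at most 2 extremes per pathway list at 20 CPM or more. Ndufa5, Ndufb6, Ndufb8, Ndufb9, Ndufa10, Ndufv1, Uqcr10, Uqcrc1, Sdhd, Cox5b, Cox7b, Cox7a2l, Ndufa13, Ndufb5, Atp5b, Atp5c1, Atp5e, Atp5h, Atp5pb, Atp5j2, Atp5g2, Atp5g3, Uqcrb, Uqcrh, Uqcrq and the Sdhaf genes were added after their values were seen. The members and lists were chosen with earlier results of these data known. Alternatives were other cell filters, doublets kept, size factors, another library sum, other pseudocounts and level limits, equal cell weights, cells thinned to 2000 UMIs, the same gate weights, stricter gates, gates on thinned cells, symbols matching to the end and, chosen after seeing the data, members without copies. Python 3.11.15 was used with numpy 2.4.6, scipy 1.17.1, pandas 2.3.3 and matplotlib 3.10.9.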

Additional observations from a re-analysis of the deposited data

Results flagged for a closer look

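The Rbm5 KO difference ran opposite ways in leukaemia and in c-Kit+ marrow. The sum of the nuclear members was 0.766 of WT in MLL-AF9 leukaemia and 1.09 times WT in c-Kit+ cells, and 69 of 82 nuclear members were lower in the KO leukaemia and higher in the KO c-Kit+ library, beside 36.8% of all genes. The difference between these effects was not tested, because each group has 1 library. In leukaemia the direction rests on scaling to the UMI total, as with size factors 45 of 82 were lower and the ratio of the sums was 0.975.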

How the results depend on the processing

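Of the values that answer a comparison, 119 kept their direction and size under the alternatives run and 30 moved; none changed direction. With size factors 45 of 82 nuclear members were lower in KO leukaemia, against 75, as the median of all genes shifted from -0.39 to -0.05. The log2 change of the nuclear to mitochondrial ratio kept its sign in every alternative. For KO over WT in leukaemia it was 0.17 and became 0.096 with all barcodes, 0.14 and 0.13 with mitochondrial limits of 20% and 5%, 0.36 with cells weighted equally, 0.22 with thinned cells, 0.049 with the same gate weights and 0.19 without copied members. In c-Kit+ cells it was 0.26 and became 0.23 with all barcodes, 0.28 at 5%, 0.25 with doublets kept, 0.18 with equal weight, 0.19 with thinned cells and 0.28 with the same gate weights. For WT leukaemia over c-Kit+ cells it was -0.53 and became -0.59, -0.56 and -0.42 with all barcodes, 20% and 5%, -0.55 with doublets, -0.84 with equal weight, -0.68 with thinned cells, -0.60 with the same gate weights and -0.47 without copies. For the KO pair it was -0.63 and became -0.72, -0.68 and -0.58 with all barcodes, 20% and 5%, -0.66 with equal weight, -0.65 with thinned cells, -0.76 with the same gate weights and -0.55 without copies. With 1 marker more per gate, the nuclear sum was lower in WT leukaemia than in c-Kit+ cells in 5 of 10 gates, against 8 of 12. The mitochondrial sum ratio changed direction for WT leukaemia over c-Kit+ cells with size factors (0.921, against 1.12) and for the KO pair with the same gate weights (1.05, against 0.843). Of the other values 76 held and 74 moved in size. Apart from the scaling, the cause of these moves was not tested. A pseudocount cannot change a ratio of sums. No paired analysis was possible because each group has 1 library. Counting depth limits members with few UMIs, such as Cox4i2 (11 and 38 UMIs in WT and KO leukaemia, ratio 3.17, 1.59 to 6.89) and mt-Co2 (0.898, 0.778 to 1.04), and small differences such as those of Sdhb and Cox4i1. The lack of replicates limits every comparison.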
